A study of Mus musculus with 6 samples.

Results

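Ribosome biogenesis and RNA polymerase I genes were followed in the arrays of CCR9+ plasmacytoid dendritic cells (pDCs) and of CCR9- pDC-like dendritic cell precursors from mouse bone marrow. The set held 41 named genes, chosen by function: core proteins of the small nucleolar ribonucleoproteins (snoRNPs), nucleolar scaffold proteins, processing factors of the small and the large ribosomal subunit, RNA polymerase I subunits and factors, and Myc. Of these, 39 had at least 1 probe named for them, 72 probes of 45281 in all, and 28 were above background often enough to be tested among 9561 genes. Both populations were sorted by FACS from the marrow of female C57BL/6 mice aged 7 weeks, with no treatment or engineered allele in the labels. The CCR9+ pDC group, which carries the chemokine receptor CCR9, and the CCR9- pDC-like DC precursor group, which the series calls common progenitors and whose sample characteristics read CCR9- pDC, had 3 arrays each from independent isolations. Whether an isolation pooled several mice, and which markers besides CCR9 set the gates, is not stated in the labels.

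Ribosomes are made mainly in the nucleolus. RNA polymerase I copies the ribosomal DNA into a long precursor RNA, snoRNPs modify it at positions chosen by their guide RNAs, and processing factors cut it and fold it with ribosomal proteins into the small and the large subunit. Many of these genes are known targets of the transcription factor Myc, and their level generally follows the growth and division rate of a cell. Plasmacytoid dendritic cells are known as largely non-dividing cells with a well developed secretory apparatus, whereas dendritic cell progenitors divide.

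Each array had 15254 to 16905 probes above background, with the fewest on CCR9+ pDC replicate 3. That array stood apart: 3.70% of the named probes kept for testing lay more than 1 log2 unit below both other CCR9+ pDC arrays, while on each of the other 5 arrays at most 0.252% lay that far below the arrays of their own group. Among the probes of the ribosome biogenesis genes, 3 did so on this array. Without it, the differences of 13 of the tested genes moved by over 1.5 times or changed sign; these are given with and without it. Markers of pDCs were present in both groups: of 17 tested, 8 were higher and 2 lower in CCR9+ pDCs, and Tcf4, the E protein that defines the lineage, had a log2 signal of 14.70 ± 0.26 in CCR9+ pDCs and 14.63 ± 0.10 in CCR9- precursors (SD, n = 3 each). The Ccr9 probe was above background on no array, so the sorted marker could not be checked. Among 10 conventional dendritic cell markers tested, 5 were higher and 2 lower in CCR9+ pDCs. When only genes above background on all 6 arrays were tested, 6 of 14 pDC markers were higher and 2 lower. Of 6 conventional dendritic cell markers in that setting, 4 were higher and none lower. Cd4 and Grm8 entered the test through the CCR9+ pDC arrays alone, and Zbtb46 through the CCR9- precursor arrays alone.

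Markers of other marrow cells and of dividing cells moved with the groups. Of 14 monocyte and macrophage markers, 14 were higher in CCR9+ pDCs, with a summed normalized signal of 92767 to 107415 on CCR9+ pDC arrays, against 16843 to 20076 on CCR9- precursor arrays. Granulocyte markers were higher too, 12 of 12, with a summed signal of 105785 to 121014 in CCR9+ pDCs, against 53267 to 63160 in CCR9- precursors. So were 8 of 8 basophil and mast cell markers, with 5730 to 7546 in CCR9+ pDCs, against 1951 to 2546 in CCR9- precursors. Of 7 erythroid markers 4 were higher (71121 to 122530 in CCR9+ pDCs, against 56231 to 83216 in CCR9- precursors), of 6 B cell markers 2 (2550 to 2957, against 1283 to 1426) and of 4 T and NK cell markers 2 (502.5 to 626.9, against 291.8 to 350.02). Some of these markers were not above background on all 6 arrays. When only genes that were so were tested, 9 of 9 monocyte and macrophage markers were higher. So were 12 of 12 granulocyte and 5 of 5 basophil and mast cell markers. C1qa and Il4 were above background on no CCR9- precursor array and entered the test through the CCR9+ pDC arrays alone. Among the markers on the array, Xcr1, Flt3, Cd5l, Mmp8, Cd8a, Ncr1, Klrb1c and Il2rb were above background on no array. All 27 cell cycle genes tested were lower in CCR9+ pDCs, where their summed signal was 17999 to 19141, against 73498 to 77996 in CCR9- precursors. The part of these differences in the ribosome biogenesis results was not tested. In such bulk samples, fewer cells of a type and less RNA per cell cannot be told apart.

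The comparison asks whether the machinery that builds ribosomes differs between the CCR9+ pDCs and the CCR9- precursors. Of the 28 genes tested, 9 were lower in CCR9+ pDCs, none was higher, and 19 did not pass the threshold, an adjusted p below 0.05 in a limma fit over all genes. At an unadjusted p below 0.05, 14 were lower and none higher. That threshold is less strict, and the share of all genes that pass it was not computed. The shares of all genes given here are therefore no measure for counts at an unadjusted p, in this set or the other lists. The 9 genes called lower are 32.1% of those tested; over all 9561 genes tested, 35.8% were called, 18.2% lower and 17.6% higher in CCR9+ pDCs. All differences are on the log2 scale, CCR9+ pDC minus CCR9- precursor, and their median was -0.25 over the 28 genes and -0.02 over all genes. Below 0 lay 23 of the 28 (82.1%, against 52.3% of all genes), and for 16 every CCR9+ pDC array was lower than every CCR9- precursor array (57.1%, against 26.7% of all genes). For 1 gene, Wdr43, every CCR9+ pDC array was higher, against 24.2% of all genes. Because the set was chosen with earlier results of these data known, these shares are a description of the set.

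**Figure D1:**
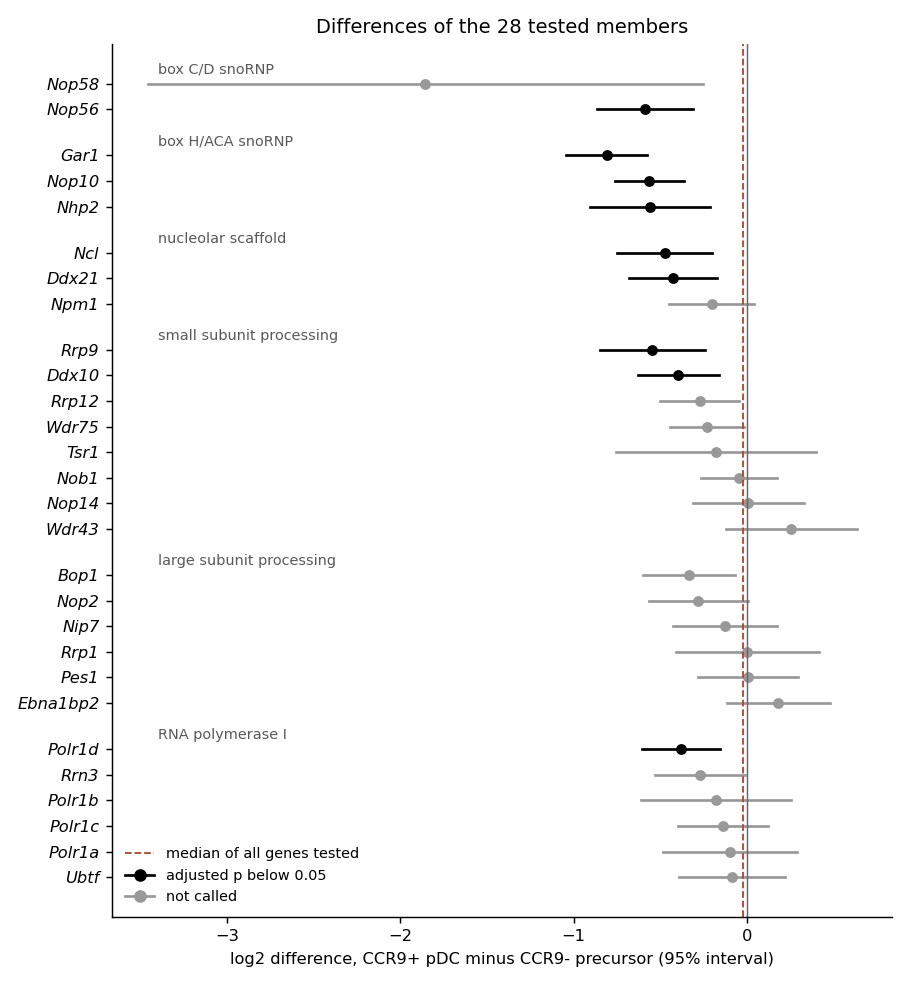
Log2 difference in signal (CCR9+ pDC minus CCR9- precursor, x axis) of each of the 28 tested genes with its 95% interval, grouped by role, black where the adjusted p was below 0.05; the dashed line is the median of all 9561 genes (-0.02). The 9 called genes all lie below 0, from -0.81 for Gar1 to -0.38 for Polr1d, and Nop58 has the widest interval.

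The called genes were also counted by role, with 2 to 8 genes tested in each. Over all genes tested, 18.2% were called lower. Of the box H/ACA snoRNP genes, 3 of 3 tested were lower, as were 1 of 2 box C/D snoRNP genes and 2 of 3 nucleolar scaffold genes. Among processing factors, 2 of 8 small subunit genes and 0 of 6 large subunit genes were lower, and 1 of 6 genes of RNA polymerase I and its factors was. At an unadjusted p below 0.05, 1 of the 6 large subunit genes was lower and none was higher. These counts moved with the setting. Nucleolar scaffold calls were 0 of 3 without CCR9- precursor replicate 1 or 2, and 3 of 3 with array weights. They were 1 of 3 without CCR9+ pDC replicate 1 or 2, CCR9- precursor replicate 3 or both arrays numbered 3, and with probe means. Box H/ACA calls were 2 of 3 without CCR9+ pDC replicate 2 or CCR9- precursor replicate 1 or 2. Box C/D calls reached 2 of 2 in some settings, among them median scaling. Small subunit calls reached 4 of 8 with median scaling and with no background step, and numbered 0 without CCR9- precursor replicate 1 or 3. With CCR9+ pDC replicate 1 or CCR9- precursor replicate 2 left out, 1 was called. Large subunit calls reached 1 of 6 under 2 alternatives. RNA polymerase I calls were 0 without CCR9+ pDC replicate 2 or CCR9- precursor replicate 1 or 2, and also with probe means. Whether the roles differ from each other was not tested.

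Box H/ACA snoRNPs convert chosen uridines of ribosomal RNA to pseudouridine; Gar1, Nhp2 and Nop10 encode 3 of their core proteins, and Dkc1 encodes dyskerin, the enzyme. Gar1 had log2 signals of 10.59, 10.48 and 10.45 on CCR9+ pDC arrays (replicates 1 to 3), against 11.40, 11.36 and 11.20 on CCR9- precursor arrays. The groups were separated by more than their own range, and Gar1 was 1.75-fold lower in CCR9+ pDCs (difference -0.81, SE 0.10, limma adjusted p = 0.00100). Nop10 had 9.33, 9.35 and 9.28 on CCR9+ pDC arrays, against 9.86, 9.87 and 9.92 on CCR9- precursor arrays. With SDs of 0.036 in CCR9+ pDCs and 0.035 in CCR9- precursors, Nop10 varied little within either group, and it was 1.48-fold lower in CCR9+ pDCs (difference -0.56, SE 0.083, adjusted p = 0.00242).

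Nhp2 had log2 signals of 8.56, 8.46 and 8.12 on CCR9+ pDC arrays, against 8.99, 9.04 and 8.78 on CCR9- precursor arrays. The lowest of the 6 values was on CCR9+ pDC replicate 3, and the groups did not overlap. Its difference was -0.56 (SE 0.14, adjusted p = 0.0240), a 1.47-fold lower signal in CCR9+ pDCs. This call was lost without CCR9+ pDC replicate 2 (adjusted p = 0.0510) and without CCR9- precursor replicate 1 or 2 (adjusted p = 0.0809 and 0.0865). Neither Dkc1 probe was above background on any array (lowest detection p-value 0.446), so the enzyme of the complex was not measured.

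**Figure D2:**
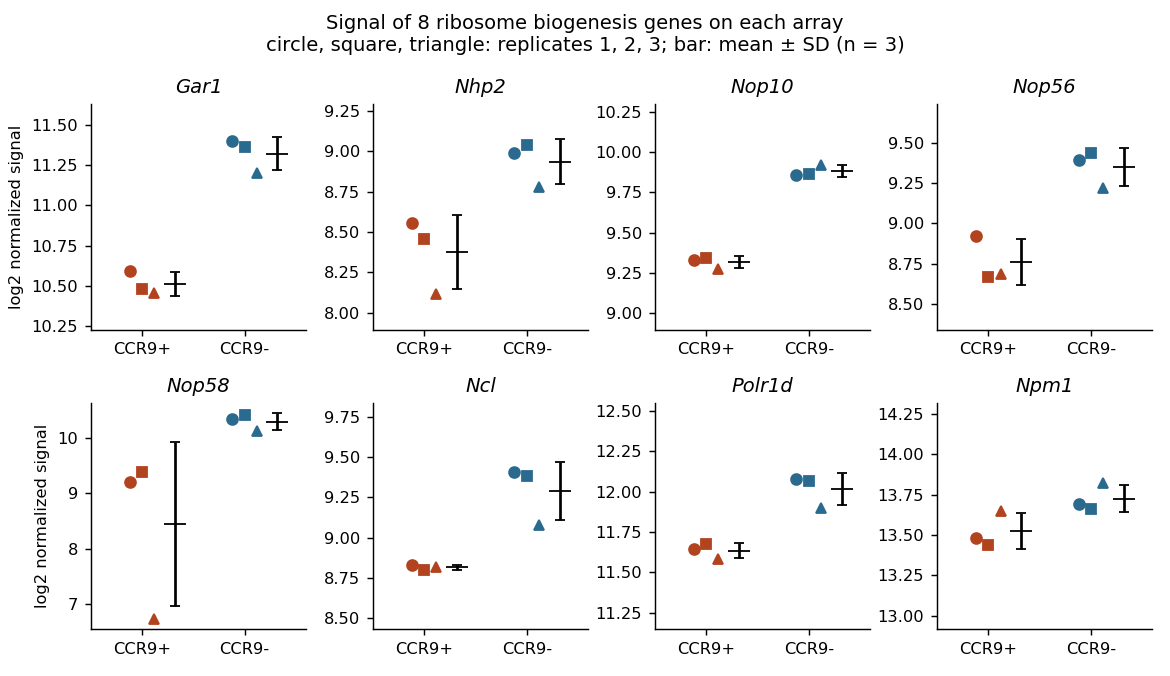
Log2 normalized signal (y axis, a separate scale in each panel) of 8 genes on the 3 CCR9+ pDC arrays (left, rust) and the 3 CCR9- precursor arrays (right, blue), with mean and SD beside the points. Every CCR9+ pDC point lies below every CCR9- precursor point in all 8 panels, which show genes from the 16 of 28 tested that separate this way. That is 57.1% of the tested genes, against 26.7% of all genes. Of the other tested genes, 11 overlap and Wdr43 separates the other way. For Nop58 replicate 3 of CCR9+ pDC sits at 6.74, far below the other 2, and for Npm1 the groups are closest (means 13.52 and 13.73).

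For Gar1, Nhp2, Nop10 and Nop56, which are among the 9 genes called lower, the 250 bases before the annotated starts are shown. The sequences are from RefSeq on GRCm38.p6, 5′ to 3′ on the strand of the gene. They lie at chr3:129831397-129831646 (Gar1, minus strand), chr11:51619523-51619772 (Nhp2, plus), chr2:112261676-112261925 (Nop10, plus) and chr2:130274162-130274411 (Nop56, plus). Capitals mark matches, on either strand, to CCGGAAG, the core motif of ETS factors, or to CACGTG, the E-box that Myc binds; the 2 motifs share no overlap in these windows.
Gar1: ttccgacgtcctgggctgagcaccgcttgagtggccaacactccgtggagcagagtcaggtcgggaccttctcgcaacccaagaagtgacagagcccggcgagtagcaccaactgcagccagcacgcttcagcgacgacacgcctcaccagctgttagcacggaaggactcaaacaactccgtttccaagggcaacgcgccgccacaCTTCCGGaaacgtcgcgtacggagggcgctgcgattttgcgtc
Nhp2: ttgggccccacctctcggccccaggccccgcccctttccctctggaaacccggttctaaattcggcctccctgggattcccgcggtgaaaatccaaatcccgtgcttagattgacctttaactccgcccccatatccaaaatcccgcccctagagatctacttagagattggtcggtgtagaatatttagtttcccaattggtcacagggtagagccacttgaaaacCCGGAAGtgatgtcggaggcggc
Nop10: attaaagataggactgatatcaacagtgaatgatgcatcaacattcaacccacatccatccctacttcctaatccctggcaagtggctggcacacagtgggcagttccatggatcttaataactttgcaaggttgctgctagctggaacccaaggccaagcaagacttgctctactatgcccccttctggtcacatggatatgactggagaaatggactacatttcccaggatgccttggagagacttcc
Nop56: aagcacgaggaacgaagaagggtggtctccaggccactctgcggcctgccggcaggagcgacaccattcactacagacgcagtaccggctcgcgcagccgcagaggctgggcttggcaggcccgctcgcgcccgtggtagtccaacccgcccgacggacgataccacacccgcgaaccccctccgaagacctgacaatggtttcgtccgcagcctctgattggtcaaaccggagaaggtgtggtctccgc
Gar1 and Nhp2 each hold 1 ETS match, which begins 43 and 23 bases before the start, and neither motif is found in the windows of Nop10 and Nop56. Of the 41 genes, 35 had a RefSeq promoter entry. CCGGAAG was in this 250-base window of 7 of them (20.0%), against 7.83% of 27025 genes, and of 3 of the 9 genes called lower, Gar1, Nhp2 and Ddx10. CACGTG was in 3 of the 35 (8.57%, against 6.86% of all genes) and in none of the 9 genes called lower. With 50 bases after the start included, CACGTG was in 7 of the 35 (20.0%, against 8.09%), again in none of those 9. In that longer window CCGGAAG was in 10 of the 35 (28.6%, against 9.93%), again in 3 of the 9. The promoters differ in base composition, with a median GC content of 58.3% over the 35 genes and 52.8% over all genes; its part in these shares was not tested. A match describes the letters of the window only.

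Box C/D snoRNPs add methyl groups to ribosomal RNA; Nop56 and Nop58 are their paired scaffold proteins, and Fbl encodes fibrillarin, the enzyme. Nop56 had log2 signals of 8.92, 8.67 and 8.69 on CCR9+ pDC arrays, against 9.39, 9.43 and 9.22 on CCR9- precursor arrays. All CCR9+ pDC values were below all CCR9- precursor values, with a difference of -0.59 (SE 0.11, adjusted p = 0.00798), 1.503-fold lower in CCR9+ pDCs.

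Nop58 had 9.20, 9.38 and 6.74 on CCR9+ pDC arrays, against 10.34, 10.42 and 10.13 on CCR9- precursor arrays. The groups did not overlap, but CCR9+ pDC replicate 3 was more than 2 log2 units below the other CCR9+ pDC arrays, and the gene did not pass (difference -1.86, 95% interval -3.46 to -0.25, adjusted p = 0.0736). Without that array the difference was -1.003 and passed the threshold (limma adjusted p = 0.00181). With all arrays kept it also passed under median scaling (-2.10, adjusted p = 0.0430), with array weights (-1.17, 0.0437), in the values the authors had processed (-1.38, 0.0194) and with no background step (-1.44, 0.0183). The second Nop58 probe was above background on no array, and Fbl had no named probe.

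The nucleolar scaffold genes encode abundant RNA-binding proteins. Ncl encodes nucleolin, which binds nascent ribosomal RNA, and had log2 signals of 8.83, 8.80 and 8.82 on CCR9+ pDC arrays, against 9.41, 9.38 and 9.08 on CCR9- precursor arrays. Its CCR9+ pDC values were nearly equal, and the spread lay among the CCR9- precursor arrays, where replicate 3 was lowest. Ncl was 1.39-fold lower in CCR9+ pDCs (difference -0.47, SE 0.11, adjusted p = 0.0188), and the call was lost without CCR9+ pDC replicate 2 (adjusted p = 0.0577) and without CCR9- precursor replicate 1 (0.0714) or 2 (0.0744).

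Ddx21, a helicase gene whose product acts on ribosomal RNA and snoRNAs, had 9.58, 9.84 and 9.70 on CCR9+ pDC arrays, against 10.07, 10.11 and 10.23 on CCR9- precursor arrays. The groups did not overlap, and Ddx21 was 1.34-fold lower in CCR9+ pDCs (difference -0.43, SE 0.11, adjusted p = 0.0203). Leaving out CCR9+ pDC replicate 1 (adjusted p = 0.0545), any 1 of the CCR9- precursor arrays (0.0516, 0.0626 and 0.0718) or both arrays numbered 3 (0.0868) ended the call, as did the mean of its probes (0.0806), although the difference was then -0.73. Npm1 encodes nucleophosmin, a chaperone of the nucleolus, and had 13.48, 13.44 and 13.65 on CCR9+ pDC arrays, against 13.69, 13.66 and 13.82 on CCR9- precursor arrays. These values came close without overlapping, and Npm1 did not pass the threshold (difference -0.20, 95% interval -0.45 to 0.043, adjusted p = 0.177); it passed with array weights (-0.25, adjusted p = 0.0454), while in the values the authors had processed the difference was 0.0091. Npm1 has processed pseudogenes, and its probe cannot be assumed to exclude them. Gnl3, which encodes the nucleolar GTPase nucleostemin, was above background on no array.

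Small subunit factors prepare the precursor of 18S ribosomal RNA, many of them within a complex built around the U3 snoRNA. Rrp9, which encodes a U3-binding protein, had log2 signals of 7.71, 7.79 and 7.38 on CCR9+ pDC arrays, against 8.20, 8.13 and 8.19 on CCR9- precursor arrays. The CCR9- precursor values lay within a narrow range above all 3 CCR9+ pDC values, and Rrp9 was 1.46-fold lower in CCR9+ pDCs (difference -0.55, SE 0.13, adjusted p = 0.0162). The call was lost without CCR9- precursor replicate 1 (adjusted p = 0.0575) or 3 (0.0553).

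Ddx10, whose yeast counterpart is a helicase of small subunit processing, had 7.55, 7.76 and 7.57 on CCR9+ pDC arrays, against 8.08, 7.98 and 8.01 on CCR9- precursor arrays. Its groups did not overlap, and it was 1.31-fold lower in CCR9+ pDCs (difference -0.39, SE 0.098, adjusted p = 0.0210). The call was lost without CCR9+ pDC replicate 1 (adjusted p = 0.0586), without any 1 of the CCR9- precursor arrays (0.0795, 0.0580 and 0.0636) and without both arrays numbered 3 (0.0838).

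The other 6 small subunit genes tested did not pass. Rrp12, which in yeast serves the export of both subunits, and Wdr75, of the first complex to bind the precursor RNA, had non-overlapping groups and differences of -0.27 (95% interval -0.50 to -0.042, adjusted p = 0.0688) and -0.23 (-0.44 to -0.017, adjusted p = 0.0902). Both passed with median scaling (adjusted p = 0.0459 for Rrp12 and 0.0383 for Wdr75) and with no background step (0.0460 and 0.0473), and Wdr75 also with array weights (0.0274). Wdr43, of the same early complex as Wdr75, was the only one of the 28 genes whose CCR9+ pDC arrays all lay above all CCR9- precursor arrays, at 8.83, 8.83 and 9.32 in CCR9+ pDCs, against 8.61, 8.79 and 8.81 in CCR9- precursors. The highest of these was CCR9+ pDC replicate 3, and the difference of 0.26 did not pass (95% interval -0.12 to 0.64, adjusted p = 0.255). It was 0.095 without that array and 0.013 with median scaling. For Nob1, the endonuclease gene of the last cut that forms 18S ribosomal RNA, the interval was -0.26 to 0.17, and for Tsr1, a late assembly factor gene, it was -0.75 to 0.40. Nop14, of the U3 complex, had an interval of -0.31 to 0.33. Without CCR9+ pDC replicate 3 the difference was -0.069 for Nob1 (-0.044 with all arrays), -0.35 for Tsr1 (-0.18) and -0.10 for Nop14 (0.0087), and none passed.

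Large subunit factors process the precursors of 28S and 5.8S ribosomal RNA. None of the 6 tested passed, and their median difference was -0.060. That median was -0.17 without CCR9+ pDC replicate 3, -0.14 without CCR9- precursor replicate 3, -0.030 without CCR9- precursor replicate 1, -0.32 with median scaling, -0.21 with array weights and 0.0055 with no filter on dim probes, where 10 genes entered. Bop1 and Pes1 encode subunits of 1 complex, PeBoW, with Wdr12, which was not above background. Bop1 had 7.91, 8.01 and 7.76 on CCR9+ pDC arrays, against 8.31, 8.09 and 8.28 on CCR9- precursor arrays, while Pes1 had 9.15, 9.32 and 8.97, against 9.25, 9.11 and 9.06. The Bop1 groups did not overlap (difference -0.33, 95% interval -0.60 to -0.066, adjusted p = 0.0583; 0.0489 with no background step and 0.0434 when only genes above background on all arrays were tested), and the Pes1 groups did (difference 0.0072, interval -0.28 to 0.30, adjusted p = 0.971).

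Nop2, a methyltransferase gene of large subunit RNA, had a difference of -0.28 (95% interval -0.57 to 0.0072, adjusted p = 0.118) with groups that did not overlap. Nip7, Rrp1 and Ebna1bp2, whose yeast counterparts act on large subunit precursors, had overlapping groups. Their differences were -0.12, 0.0038 and 0.18, with intervals of -0.42 to 0.18 for Nip7, -0.41 to 0.42 for Rrp1 and -0.12 to 0.48 for Ebna1bp2. Without CCR9+ pDC replicate 3 the differences were -0.18 for Nop2, -0.22 for Nip7, -0.17 for Rrp1, 0.11 for Ebna1bp2 and 0.096 for Pes1, and none passed.

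**Figure D3:**
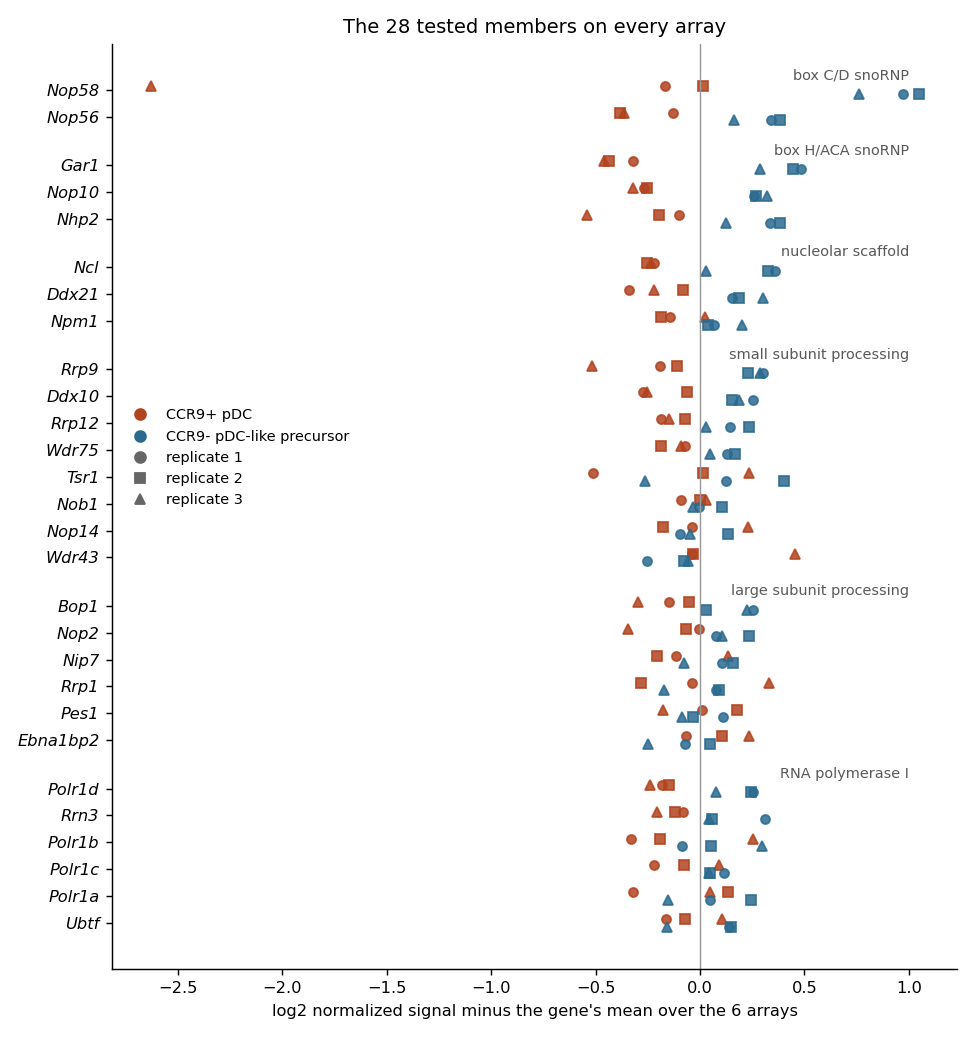
Log2 normalized signal of each of the 28 tested genes on every array, minus that gene's mean over the 6 arrays (x axis), with genes grouped by role; rust points are CCR9+ pDC arrays and blue points CCR9- precursor arrays. The 2 colours separate for the snoRNP and nucleolar scaffold genes and mix for most large subunit and RNA polymerase I genes, and the point at the far left is Nop58 on CCR9+ pDC replicate 3.

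RNA polymerase I transcribes the ribosomal DNA; Polr1a and Polr1b encode its catalytic subunits, Polr1c and Polr1d encode assembly subunits that it shares with RNA polymerase III, and Ubtf and Rrn3 encode its promoter factor and its initiation factor. Polr1d had log2 signals of 11.64, 11.68 and 11.58 on CCR9+ pDC arrays, against 12.08, 12.07 and 11.90 on CCR9- precursor arrays. The groups were clearly separated, and Polr1d was 1.30-fold lower in CCR9+ pDCs (difference -0.38, SE 0.094, adjusted p = 0.0204). Its call was lost without CCR9+ pDC replicate 2 (adjusted p = 0.0504), without CCR9- precursor replicate 1 or 2 (0.0794 and 0.0804) and with the mean of its probes (0.0549).

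Rrn3 had 7.10, 7.06 and 6.98 on CCR9+ pDC arrays, against 7.49, 7.24 and 7.23 on CCR9- precursor arrays, without overlap, and did not pass (difference -0.27, 95% interval -0.53 to -0.011, adjusted p = 0.0993). The other 4 polymerase genes had overlapping groups. Polr1a, the gene of the largest subunit, had 9.68, 10.13 and 10.05 on CCR9+ pDC arrays, against 10.05, 10.25 and 9.85 on CCR9- precursor arrays (interval of the difference -0.48 to 0.29). The intervals were -0.61 to 0.26 for Polr1b, -0.39 to 0.12 for Polr1c and -0.39 to 0.22 for Ubtf. A difference as large as that of Gar1 (-0.81) lies outside all 4 intervals. Without CCR9+ pDC replicate 3 the difference was -0.35 for Polr1b (-0.18 with all arrays), -0.22 for Polr1c (-0.14) and -0.16 for Ubtf (-0.085), and none passed.

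Myc itself was not measured: its 2 probes were above background on no array (lowest detection p-value 0.161), which at this sensitivity does not show that the transcript was absent. Of 11 genes of the network of Myc, its partner Max and related proteins, 7 were tested, and 2 were higher and 2 lower in CCR9+ pDCs. Over all genes tested, 17.6% were called higher and 18.2% lower, and whether the network differs from these shares was not tested. Both genes counted as lower were at or near background in CCR9+ pDCs: among the 4 network genes above background on all 6 arrays, 2 were higher and none lower. Mxd4 and Mxd1 encode proteins that pair with Max and repress its targets. Mxd4 had log2 signals of 12.19, 12.12 and 12.13 on CCR9+ pDC arrays, against 11.11, 10.82 and 10.98 on CCR9- precursor arrays, and Mxd1 had 8.59, 8.52 and 8.97, against 7.49, 7.64 and 7.96. Both were higher in CCR9+ pDCs without overlap (Mxd4 by 1.18, adjusted p = 0.000249; Mxd1 by 1.00, adjusted p = 0.00477) and stayed called under all 17 alternatives run. Mxd3, a member of the same family, was above background on no CCR9+ pDC array and had a mean of 7.33 on CCR9- precursor arrays, so it was at least 3.49-fold lower in CCR9+ pDCs. It entered the test through the CCR9- precursor arrays alone, and no p-value is given for it. Mxi1 was lower by -0.38 (adjusted p = 0.0313), was above background on 1 CCR9+ pDC array, and was called under 5 of 16 alternatives.

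In all, 11 genes of the set with a probe were not tested because they were above background on fewer than 3 arrays. Besides Dkc1, Gnl3 and Myc these were the small subunit genes Utp14a, Utp18, Utp20 and Bysl and the large subunit genes Nop16, Wdr12, Rrs1 and Ddx56. Only Utp20 reached the background threshold on any array, and it did so on 1. Ddx18, like Fbl, had no named probe. All 28 tested genes were above background on all 6 arrays.

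Several genes were measured by more than 1 probe. Of 42 probes kept, 11 passed (26.2%), all lower in CCR9+ pDCs, in a fit over 14282 kept probes, of which 31.0% passed in either direction. The share of all kept probes that passed as lower alone was not computed. Of 11 genes with several kept probes, 7 had differences of the same sign on all of them: Ddx10, Ddx21, Ebna1bp2, Ncl, Nob1, Nop2 and Polr1d. The 2 brighter Polr1d probes gave -0.38 and -0.39, and both passed, while the third, near background, gave -0.072. A second Nob1 probe, dimmer than the one that represents the gene, had 7.76, 7.74 and 7.81 on CCR9+ pDC arrays, against 8.13, 7.99 and 8.20 on CCR9- precursor arrays, and passed in that fit (difference -0.34, adjusted p = 0.0444), whereas the brighter one gave -0.044. Probes of Polr1a, Tsr1, Ubtf and Wdr75 disagreed in sign, and none of them passed. The second Ddx21 probe had 7.26, 7.30 and 5.27 on CCR9+ pDC arrays, against 7.71, 7.57 and 7.65 on CCR9- precursor arrays, so its low value on CCR9+ pDC replicate 3 was not shared by the brighter Ddx21 probe.

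Other genes of ribosome assembly gave a wider view. In a list of 123 further genes, 103 were tested, 21 were lower and 1 was higher in CCR9+ pDCs, and 81 did not pass. The share called lower, 20.4%, was close to that of all genes (18.2%), and the median difference was -0.17. It varied between the parts of the list. Of 6 snoRNP assembly genes, 4 were lower: the ATPase genes Ruvbl1 and Ruvbl2, Znhit3, and Snu13, which encodes a box C/D core protein. Znhit3 had log2 signals of 8.15, 8.15 and 8.39 on CCR9+ pDC arrays, against 8.66, 8.78 and 8.76 on CCR9- precursor arrays (difference -0.50, adjusted p = 0.0108). Znhit3 alone of the 4 was called under all 17 alternatives; Ruvbl1 and Ruvbl2 were called under 12 each and Snu13 under 6. The count of 4 fell to 1 without CCR9+ pDC replicate 1 or 2 or CCR9- precursor replicate 1, and to 2 without CCR9- precursor replicate 2.

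RNA exosome genes encode the complex that trims the ends of ribosomal RNA precursors and degrades their spacers. Of 11 tested, 5 were lower in CCR9+ pDCs (45.5%, against 18.2% of all genes) and none higher, also at an unadjusted p below 0.05, where 7 were lower. Exosc6 had 5.58, 5.69 and 5.93 on CCR9+ pDC arrays, against 6.95, 6.75 and 6.78 on CCR9- precursor arrays, and was 2.14-fold lower in CCR9+ pDCs (difference -1.09, SE 0.12, adjusted p = 0.000691). Exosc8 (difference -0.72, adjusted p = 0.00146), Exosc2 (-0.56, adjusted p = 0.00432) and Exosc7 (-0.46, adjusted p = 0.00755) were lower too. These 4 genes of the exosome were called under all 17 alternatives. The size of the Exosc6 difference depended on the setting, from -1.27 to -0.40 over these alternatives.

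Of 38 other small subunit genes tested, 7 were lower in CCR9+ pDCs and 1 was higher, and of 43 other large subunit genes, 5 were lower and none higher. The small subunit share called lower, 18.4%, was close to that of all genes (18.2%), and the large subunit share, 11.6%, was below it. The large subunit count was 0 without CCR9- precursor replicate 2 or 3, 2 without CCR9- precursor replicate 1, 3 without CCR9+ pDC replicate 2, 9 without CCR9+ pDC replicate 3 and 11 with median scaling. The small subunit count was 2 without CCR9- precursor replicate 2, 3 without CCR9+ pDC replicate 2, and 4 without CCR9+ pDC replicate 1 or CCR9- precursor replicate 1 or 3. Ddx49, a helicase gene, had 7.86, 7.68 and 7.63 on CCR9+ pDC arrays, against 8.62, 8.64 and 8.70 on CCR9- precursor arrays, a difference of -0.93 (SE 0.098, adjusted p = 0.000528). Ddx49 and Nol10 (-0.64, adjusted p = 0.00752) were called under all 17 alternatives. Utp25 (-0.54, adjusted p = 0.0166) was called under 14 and Nop9 (-0.52, adjusted p = 0.0276) under 9. Aatf, whose product serves small subunit assembly and also gene regulation, was the one riser, at 9.36, 9.32 and 8.95 on CCR9+ pDC arrays, against 8.65, 8.82 and 8.59 on CCR9- precursor arrays (difference 0.52, adjusted p = 0.0285). Aatf was called under 11 of 17 alternatives. The call was lost with median scaling and with the mean of its probes. It was also lost without CCR9+ pDC replicate 1 or 2 or CCR9- precursor replicate 1 or 3. The difference ranged from 0.12 to 0.65 over the alternatives, with a highest limma adjusted p of 0.617.

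Among the large subunit genes, Urb2 (-0.96, adjusted p = 0.0172, above background on 2 CCR9+ pDC arrays), Pa2g4 (-0.92, adjusted p = 0.0276), Ddx51 (-0.42, adjusted p = 0.0144) and Noc3l (-0.37, adjusted p = 0.0195) had the largest differences among those called. Each lost its call in at least 3 of the settings that left out arrays. Of 5 other RNA polymerase I genes tested none passed (median -0.17, 1 lower at an unadjusted p below 0.05). Their median was -0.33 without CCR9+ pDC replicate 2, -0.069 without CCR9- precursor replicate 1, -0.28 without CCR9- precursor replicate 3, -0.41 with median scaling and 0.050 with no filter on dim probes. Without CCR9+ pDC replicate 3 it was -0.29, with 1 gene called lower and 1 higher.

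**Figure D4:**
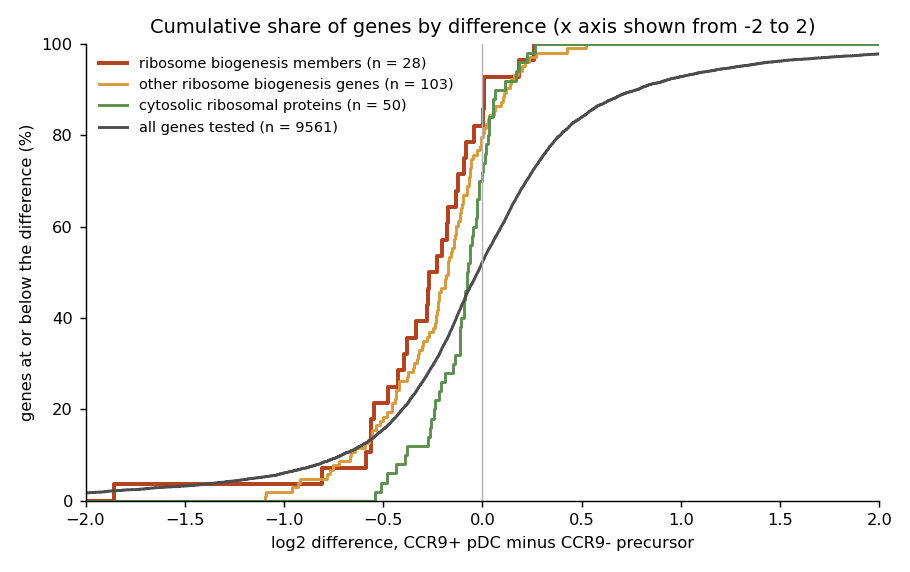
Cumulative share of genes (y axis, percent) at or below a log2 difference (CCR9+ pDC minus CCR9- precursor, x axis) for the 28 tested genes of the set, 103 other ribosome biogenesis genes, 50 cytosolic ribosomal protein genes and all 9561 genes. The first 2 curves lie left of that of all genes around 0 (medians -0.25 and -0.17, against -0.02), and the ribosomal protein curve is the steepest, with a median of -0.075.

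The other polymerases were set beside RNA polymerase I. Of 16 RNA polymerase III genes tested, 3 were lower in CCR9+ pDCs and none higher (median -0.24). The share called lower, 18.8%, was close to that of all genes (18.2%). These 3 were Gtf3c5 (-0.87, adjusted p = 0.00799) and Gtf3c6 (-0.55, adjusted p = 0.0130), which encode subunits of its factor TFIIIC, and the subunit gene Polr3k (-0.48, adjusted p = 0.0273). Gtf3c5 was called under all 17 alternatives, Gtf3c6 under 15 and Polr3k under 12. The Gtf3c6 call was lost with the mean of its probes and without CCR9- precursor replicate 2. Its difference ranged from -0.73 to -0.094 over the alternatives, with a highest limma adjusted p of 0.661. The count of 3 was 7 with median scaling, with array weights or without CCR9+ pDC replicate 3, and 1 without CCR9- precursor replicate 2. Of 3 subunit genes of RNA polymerase II alone, Polr2d was lower (-0.68, adjusted p = 0.00457), and of 4 subunit genes common to the polymerases, Polr2h was (-0.59, adjusted p = 0.0192; not called without CCR9- precursor replicate 1 or 2). Neither list had a gene higher in CCR9+ pDCs, also at an unadjusted p below 0.05.

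Cytosolic ribosomal proteins are assembled onto the processed RNA. Of 50 cytosolic ribosomal protein genes tested, 4 were lower in CCR9+ pDCs and none higher (8% lower, against 18.2% of all genes); at an unadjusted p below 0.05, 12 were lower and 2 higher. Their median difference of -0.075 turned to 0.028 when arrays were scaled by cyclic loess, and to 0.13 in the values the authors had processed, where 5 were lower and 9 higher. With no background step 12 were lower and 1 higher, and with an intensity trend in the variance prior 12 were lower and 2 higher, so no direction is given for them. Without any 1 array other than CCR9+ pDC replicate 3, the count of 4 lower fell to 1 or 2, and without that array it was 6. Rpl21 (-0.54, adjusted p = 0.00671), Rplp0 (-0.51, adjusted p = 0.0197) and Rpl13a (-0.43, adjusted p = 0.0418) had the largest differences among those called, and Rpl21 was called under all 17 alternatives. Ribosomal protein genes have many processed pseudogenes, which their probes cannot be assumed to exclude.

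Of the 9 genes called lower in the set, Gar1, Nop10 and Nop56 were called under all 17 alternatives, with differences of -1.05 to -0.67 for Gar1, -0.82 to -0.45 for Nop10 and -0.84 to -0.45 for Nop56. Without CCR9- precursor replicate 1 the number called fell to 3 of 28, and without replicate 2 of that group to 4 of 28. Over all genes, 12.7% and 12.6% were called lower in these settings. Only Gar1 and Nop56, 2 of 28, passed when a 1.5-fold difference was also required, against 1082 lower of all 9561 genes. With that fold requirement the share of the set called lower was below that of all genes. The same held without CCR9- precursor replicate 1. The scaling between arrays changed sizes: with median scaling the median of all genes was -0.19 and that of the set -0.46, with 25 of the 28 genes below the median of all genes, and calls over all genes split into 2124 lower and 986 higher (68.3% lower, against 50.8%). The median of the set stayed below 0 under all 17 alternatives, from -0.46 to -0.13, and no gene of the set was called higher under any of them.

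**Figure D5:**
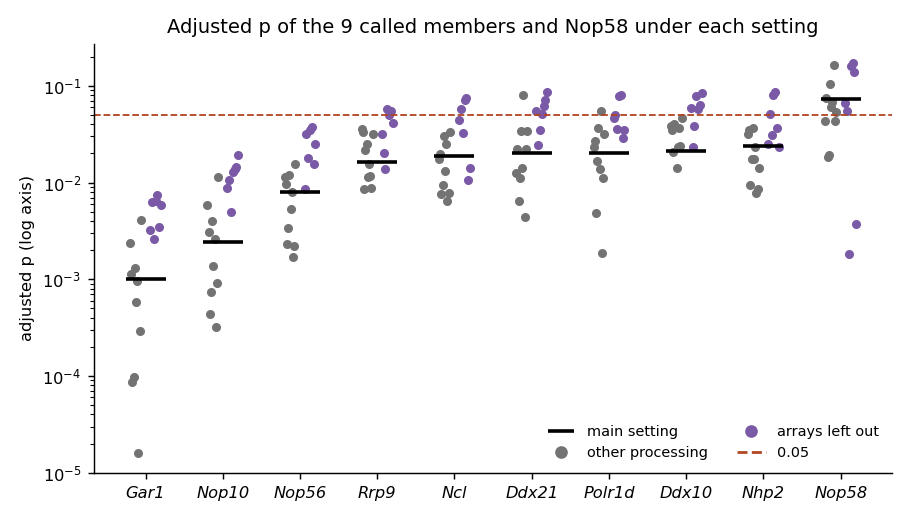
Adjusted p (y axis, log scale) of the 9 called genes and Nop58 in the setting reported (black bars), with other processing (grey points) and with arrays left out (purple points); the dashed line is 0.05. All points of Gar1, Nop10 and Nop56 lie below the line, the other called genes cross it when arrays are left out, and Nop58 drops far below it only in the 2 settings without CCR9+ pDC replicate 3.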

How the data were processed

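RNA from 6 sorted samples was hybridised to Illumina bead arrays in 1 colour, 3 CCR9+ pDC and 3 CCR9- precursor, grouped by the sample titles. Per the file headers, the deposited tables hold probe intensity before normalization, each value paired with its detection p-value, and a second, processed intensity that the authors made by steps the labels do not name (column medians 153.3 to 153.96). BeadStudio and lumi are named, without a role, per the submitters' processing notes. Chip positions and scan dates were not used here.

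In limma 3.58.1 (R 4.3.3; the data.table package, version 1.17.8, read the files), normexp with offset 16 used the detection p-values to remove background, arrays were quantile normalized and log2 taken. A probe stayed in (16857 did) when 3 or more of the 6 arrays had it detected at p below 0.05. The platform annotation gave 34885 probes 1 symbol, 18 several (left unnamed) and 10378 none; 34807 were updated through RefSeq's Entrez identifiers. The kept probe with the highest mean stood for a gene. limma's lmFit and eBayes were fitted over all 9561 genes with Benjamini-Hochberg adjustment (4 residual and 2.63 prior degrees of freedom); the script was tested on simulated data. A bound for a gene not above background in a group sets the brighter mean against the higher of the lowest detected signal and the gene's own. The number of arrays limits the precision of every value.

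Members, the 19 other gene lists and tests were chosen with earlier results of these data known. All members are accounted for; of the other assembly, polymerase and Myc network lists the 4 largest called differences in each direction are named, and of other lists at most 3. Tcf4 and markers at background were named after their values were seen. Same-numbered arrays deviated together at r = 0.35, 0.044 and 0.24, against -0.30 to 0.063 for arrays with different numbers. The labels do not say whether a shared number marks a shared isolation. The main fit did not take numbers to pair samples, and a replicate block was run as an alternative. Whether isolations were separate animals is not stated, so p-values measure the spread between these samples. Alternatives covered normalization, background, the authors' values, filter, probe choice, variance prior, array weights, replicate block, left-out arrays and a fold threshold.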

Additional observations from a re-analysis of the deposited data

How the results depend on the processing

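Counts are of genes called in CCR9+ pDCs. When arrays were left out, 3 to 10 genes of the set were lower (9 with all arrays), 8 to 27 other ribosome biogenesis genes were lower (21) and 0 to 2 higher (1), and over all genes 1201 to 1869 were lower and 1241 to 1663 higher. A 1.5-fold requirement left 2 lower in the set, 7 lower and 0 higher among other ribosome biogenesis genes, and 1082 lower over all genes. Median scaling gave 986 higher over all genes, 33 lower and 0 higher among other ribosome biogenesis genes, and a set median of -0.46; array weights gave 32 lower there, the authors' processed values 3 higher and a set median of -0.13, probe means 0 higher, and no filter a set median of -0.18. The cause of these shifts was not tested. With 3 arrays a group and 11 of the genes not above background, genes near background were not measurable here. The replicate block, for numbers not taken as pairs, gave 1684 higher and 1677 lower over all genes and 9 lower in the set, and CCR9+ pDC replicate 2 correlated best with another number. Signs turned only in genes that were not called: under median scaling Ebna1bp2 (-0.074), Nop14 (-0.20), Pes1 (-0.26) and Rrp1 (-0.099); with array weights Nop14 (-0.12) and Rrp1 (-0.20); with probe means Tsr1 (0.074) and Ubtf (0.020); with the authors' values Npm1 (0.0091). With arrays left out, the differences of genes whose sign turned ranged from -0.13 to 0.10 for Nop14, -0.081 to 0.096 for Pes1, -0.24 to 0.042 for Polr1a, -0.26 to 0.15 for Rrp1 and -0.54 to 0.035 for Tsr1.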
